A study of Mus musculus with 2 samples.

Results

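Mir486 and Mir3107 are a pair of mouse microRNA genes that overlap on opposite strands inside Ank1, and they were taken by name from the GENCODE M21 annotation, 2 of the 2202 microRNA genes counted. RefSeq lists mir-486a and mir-486b as synonyms of Mir486 and Mir3107. The data are small RNA libraries, RNA below 30 bases, of the gastrocnemius, the large calf muscle. The tissue is from the adult male mouse, strain 5xFAD/CAST, aged 8 to 10 months. The 5xFAD transgenes drive amyloid deposition in brain, and CAST mice descend from wild-caught animals. Whether the transgenes were present is not in the labels. The series holds 1 group of 2 libraries, numbered as biological replicates 1 and 2, which share 1 donor record. The labels do not say whether they come from separate animals, so some or all of the spread between them may be technical. Where n = 2 is given, it counts libraries. With 1 group there is no contrast between conditions, and the account covers where the pair's reads lie, how high they stand and how far the libraries differ.

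A microRNA gene is transcribed as a hairpin, which is cut to mature strands of about the length sequenced here, and a mature strand finds its targets mainly through its seed, the bases 2 to 8. Ank1 encodes ankyrin-1, which ties membrane proteins to the spectrin skeleton of red cells, and a short muscle form of it lies at the sarcoplasmic reticulum. The microRNA made from Mir486 is known both in striated muscle and in developing red cells. Its tissue source in a whole muscle sample is therefore not given by its level alone.

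Mir486 (ENSMUSG00000070084.3) lies on the plus strand of mm10 at chr8:23142555-23142682, 128 bases long. Mir3107 (ENSMUSG00000106471.1) lies on the minus strand at chr8:23142573-23142662, and all of its 90 bases fall within Mir486. Both are intronic. No Ank1 exon overlaps them, 15 of the 17 Ank1 transcripts span the place, and the nearest Ank1 exons end 834 bases before and start 5598 bases after the pair. On the minus strand the antisense transcript Gm15816 also spans the pair, in an intron of 1858 bases. The other microRNA gene annotated within Ank1, the predicted Gm44365 on the minus strand, had 0 reads in both libraries.

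The pair's hairpin is an inverted repeat. A run of 22 bases at chr8:23142587-23142608 returns as its exact reverse complement at chr8:23142627-23142648, with 18 bases between the arms. The same 22 letters, read 5′ to 3′, therefore stand in the first arm of Mir486 on the plus strand and in the first arm of Mir3107 on the minus strand, and likewise for the second arms. Of the 2202 hairpins, 68 (3.09%) hold an inverted run of 22 bases or more, against a median of 7.0 bases over all of them. Among the 321 genes detected in this muscle, at 2 CPM (counts per 1000000 sense reads in microRNA genes) or more in both libraries, Mir486 and Mir3107 were the only 2 with a run that long.

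**Figure D1:**
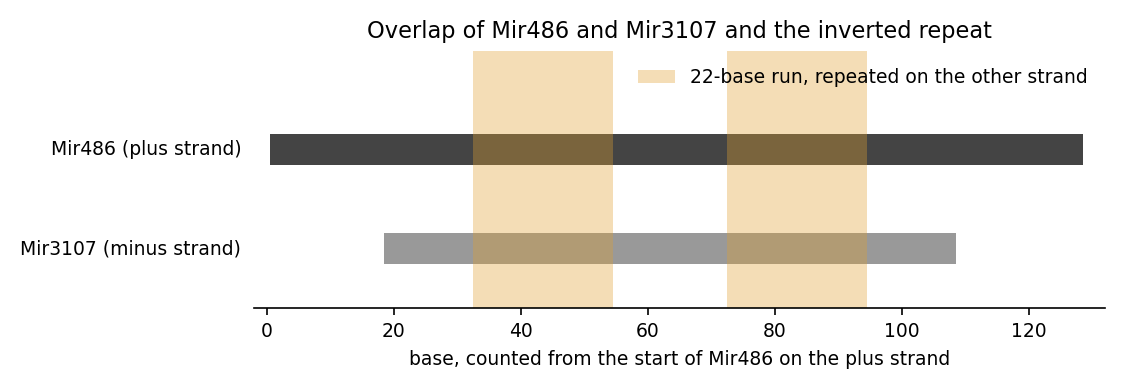
Map of Mir486 (upper bar, plus strand) and Mir3107 (lower bar, minus strand) by base from the start of Mir486, with the inverted run shaded. Each shaded arm is 22 bases long, both arms lie within both genes, and 18 bases separate them.

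The repeat bears on what could be counted, since a read aligned to several places entered no gene in these files. Of the 107 windows of 22 bases in Mir486, 2 had a second place among the annotated microRNA genes, 1 in each arm, and of the 69 in Mir3107 also 2. These windows are the whole arms, and an arm is as long as a mature strand such as miR-24-3p, of 22 bases. Mature strands are not cut evenly along a hairpin, so the share of windows is not a share of reads. The mature strands of the pair were not located on it. At 20 bases 6 windows of each gene had a second place, and at 18 bases 10 windows of each. At 24 and 26 bases none had. In each of these cases the second place was on the other strand of the same pair. A read that matches an arm exactly and ends within it is thus counted at neither gene, and an exact read of 24 bases or more had 1 place among the microRNA genes searched. With up to 1 mismatch, 98.1% of the 24-base windows of Mir486 and 97.0% of those of Mir3107 had 1 place, and the rest of the genome was not searched. How many reads were lost in this way is not known. Reads aligned to several places were 4191519 in replicate 2 and 3681109 in replicate 1, 937 and 604 times the reads counted at the pair, and the files do not tie them to genes. All levels given here are those of the reads that could be placed.

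Comparison pairs help to read the strand counts, and the mature sequences that face each other across the strands are shown for 2 of them, with the seed in capitals, from RefSeq on GRCm38.p6. In the first, Mir24-1 and Mir3074-1, reads came from both strands. The mature strands share 20 positions at chr13:63301251-63301270.
miR-24-3p (Mir24-1, plus strand): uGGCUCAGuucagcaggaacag
miR-3074-5p (Mir3074-1, minus strand): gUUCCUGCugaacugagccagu
In the second, Mir126a and Mir126b, almost all reads came from 1 strand. The mature strands share 19 positions at chr2:26591402-26591420.
miR-126a-3p (Mir126a, plus strand): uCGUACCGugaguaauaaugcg
miR-126b-5p (Mir126b, minus strand): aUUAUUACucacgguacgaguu
In both comparison pairs the facing strands have different seeds, and the longest inverted run is 10 bases in Mir24-1 and 10 bases in Mir126a.

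The strand columns placed nearly all of the countable reads on the Mir486 strand. Mir486 had 4423 reads on its own strand in replicate 2 and 5963 in replicate 1. Mir3107 had 49 reads in replicate 2 and 133 in replicate 1. Each gene's opposite-strand column repeated its partner's own count exactly, so the 2 strand columns hold the same counts and are no separate check of each other. Reads that fit both strands of the pair equally had been left out, so the split covers placed reads only. In the column that ignores strand both genes were listed at 0 in both libraries, although reads were counted there by strand. That column sets aside reads that overlap 2 genes as ambiguous, 375109 in replicate 2 and 325180 in replicate 1, and the pair's reads equal 1.19% and 1.87% of these.

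**Figure D2:**
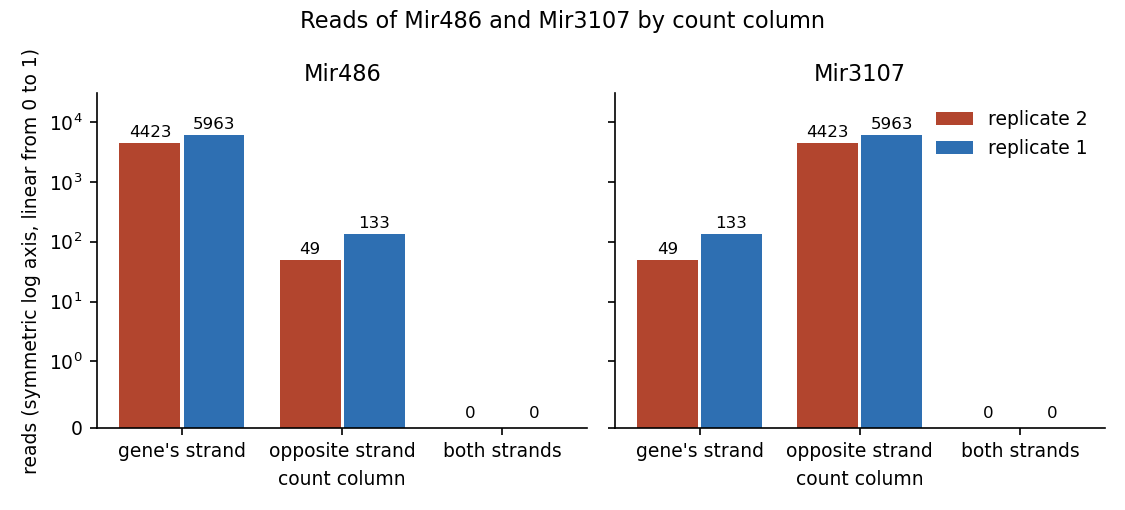
Reads of Mir486 (left) and Mir3107 (right) in the 3 count columns, on a symmetric log axis, with 1 bar per library. The first 2 columns mirror each other between the genes (4423 and 49 reads in replicate 2, 5963 and 133 in replicate 1), and the column of both strands is 0 throughout.

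Mir486 reads were 90.3 times the Mir3107 reads in replicate 2 and 44.8 times in replicate 1. The Mir3107 strand held 1.10% of the pair's reads in replicate 2 (exact Clopper-Pearson 95% interval 0.812 to 1.45) and 2.18% in replicate 1 (1.83 to 2.58), a mean of 1.64% ± 0.768 (SD, n = 2). The intervals do not overlap between the libraries, but they hold counting error within 1 library alone and no variation between libraries. PCR copies of 1 molecule cannot be recognised in these reads, so the intervals may also be too narrow.

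Reads on the opposite strand were much rarer at genes without an overlapping partner in the same libraries. At the 2135 microRNA genes with no overlapping partner, 25 reads lay opposite to 818282 sense reads in replicate 2, or 0.00306% (0.00198 to 0.00451), and 19 opposite to 832240 in replicate 1, or 0.00228% (0.00137 to 0.00357). No single gene of that kind had more than 8 opposite reads in replicate 2 or more than 4 in replicate 1. Among the 51 of them with 1000 or more sense reads in both libraries, the highest opposite share was 0.0774% in replicate 2 and 0.0958% in replicate 1. The Mir3107 strand stood above those shares in both libraries. The source of the reads on the Mir3107 strand was not tested.

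Set against the other pairs of microRNA genes that overlap on opposite strands, Mir486 and Mir3107 belonged to the few with 10 or more reads on both. Of 32 such pairs, 2 had 10 or more reads on each strand in both libraries, Mir486 with Mir3107 and Mir24-1 with Mir3074-1. That count depends on depth, since 28 of the 32 pairs had any read and 12 had 100 or more in both libraries. A shallow pair cannot reach 10 reads on its minor strand at a share as low as that of Mir3107. Mir3074-1 had 11 reads in replicate 2 and 14 in replicate 1, beside 118 and 110 reads of Mir24-1 in the same order, which gave it 8.53% (4.33 to 14.7) and 11.3% (6.31 to 18.2) of that pair. Mir24-1 is a copy of Mir24-2 in its main mature strand, so its own count and this share are uncertain.

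Of the other 11 pairs with 100 or more reads in both libraries, 8 had 0 reads on the minor strand. Mir126b had 1 read in replicate 2 and 0 in replicate 1, beside 164298 and 93483 of Mir126a. Mir191, with 6169 and 7642 reads, had 0 opposite it, which allows a share of up to 0.0486% and 0.0393% in replicates 2 and 1 by the limit of 3 counts. The exact intervals, which are the ones compared and drawn for the pairs, reach a little higher, to 0.0598% and 0.0483%. In 6 pairs, those of Mir126a, Mir191, Mir30e, Mir378a, Mir497 and Mirlet7e, the interval of the minor share lay wholly below that of the Mir486 pair in both libraries. In 4, those of Mir24-2, Mir338, Mir451a and Mirlet7f-1, the intervals overlapped in at least 1 library. In replicate 2 all 4 overlapped. In replicate 1 the upper bounds of Mir338 (0.971%) and Mirlet7f-1 (1.26%) lay below the 1.83% at which the interval of the Mir486 pair begins, and those of Mir451a (2.03%) and Mir24-2 (2.78%) did not.

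**Figure D3:**
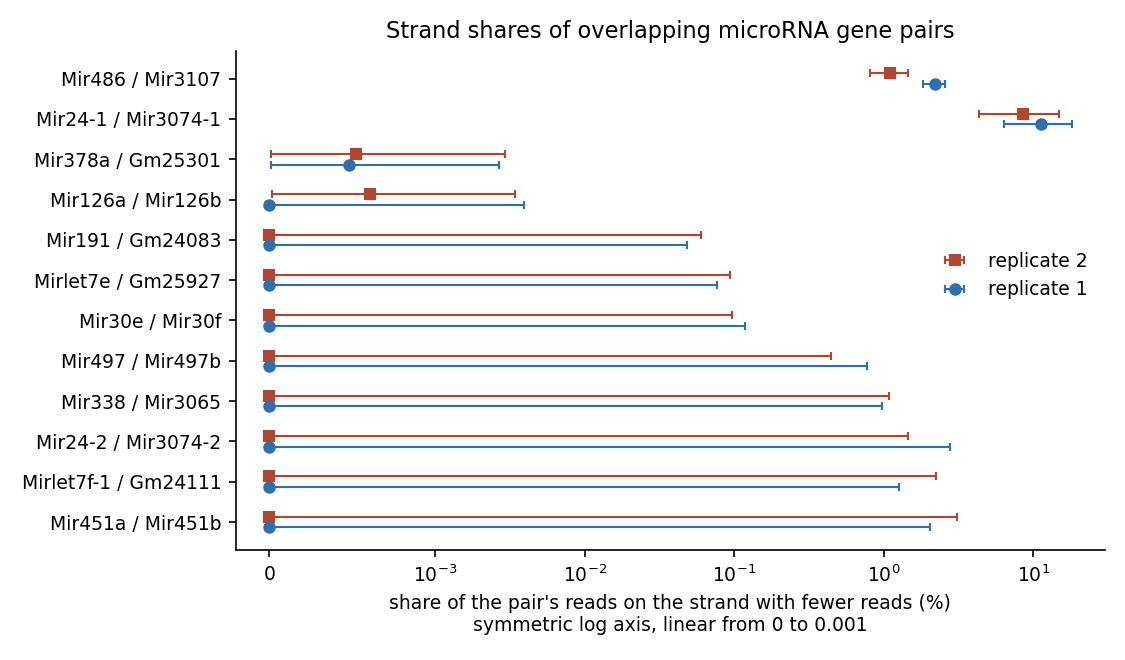
Share of a pair's reads (%, symmetric log axis) on the strand with fewer reads, for the 12 opposite-strand pairs with 100 or more reads in both libraries, with squares for replicate 2, circles for replicate 1 and exact 95% intervals for counting error. Mir486 with Mir3107 has a share of 1.10% and 2.18%, lower than Mir24-1 with Mir3074-1 and higher than the pairs of Mir378a and Mir126a, whose minor strands have at most 1 read.

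Long inverted runs were rare among detected genes, so few other loci can be set beside the pair on that feature. Mir299a, with a run of 21 bases, had 46 and 39 reads in replicates 2 and 1 and 0 on the opposite strand, which allows up to 6.52% and 7.69%. Mir374b, with a run of 20 bases, had 54 and 62 reads and 0 opposite, which allows up to 5.56% and 4.84%. Mir451a, with 16 bases, had 117 and 180 reads and 0 opposite, which allows up to 2.56% and 1.67%. Of these limits of 3 counts, only that of Mir451a in replicate 1 lies below the 2.18% of the Mir3107 strand in that library. The exact interval of Mir451a there reaches 2.03% and overlaps that of the Mir486 pair (1.83 to 2.58), so the 2 are not separated.

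In level, Mir486 was among the 30 most abundant genes in each library. It held 3706 CPM in replicate 2 (3598 to 3817) and 5152 CPM in replicate 1 (5022 to 5284), a mean of 4429 ± 1022 CPM (SD, n = 2) over totals of 1193393 sense reads in replicate 2 and 1157420 in replicate 1. It stood at rank 30 in replicate 2, at 27 in replicate 1 and at 29 of the 2202 genes by its mean. That is 0.371% and 0.515% of the sense reads. Mature microRNAs have nearly the same length, so no scaling by length was made.

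Its neighbours in the order overlapped it in range over the libraries, though only some changed places with it. Above it stood Mirlet7f-2, of the let-7 family, at 5324 ± 906 CPM and Mir99b at 4661 ± 3009 CPM. Below it stood Mirlet7e at 3748 ± 625 CPM and Mir27b at 3613 ± 421 CPM (SD, n = 2 each). The ranges of all 4 over the libraries overlapped the range of Mir486. Within each library, however, Mir486 stood below Mirlet7f-2, at 3706 against 4683 CPM in replicate 2 and at 5152 against 5965 CPM in replicate 1. It stood above Mirlet7e in both, which held 3307 CPM in replicate 2 and 4190 CPM in replicate 1, and the counting intervals did not overlap in either case. Mir99b and Mir27b were above Mir486 in replicate 2 and below it in replicate 1. The count of Mirlet7f-2 is uncertain, since its main mature strand is also made from a second locus.

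Mir3107 was far lower, at 41.1 CPM in replicate 2 (30.4 to 54.3) and 115 CPM in replicate 1 (96.2 to 136), a mean of 78.0 ± 52.2 CPM (SD, n = 2) and rank 138. It stood at rank 164 in replicate 2 and at rank 129 in replicate 1. Its nearest neighbours by mean, Mir186 and Mir340 above and Mir181a-1 and Mir29b-1 below, lay between 74.9 and 82.3 CPM, and the values of each over the libraries lay within the range of Mir3107. Both members stood above the limit that a count of 0 allows (3 counts), which was 2.51 CPM for replicate 2 and 2.59 CPM for replicate 1.

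**Figure D4:**
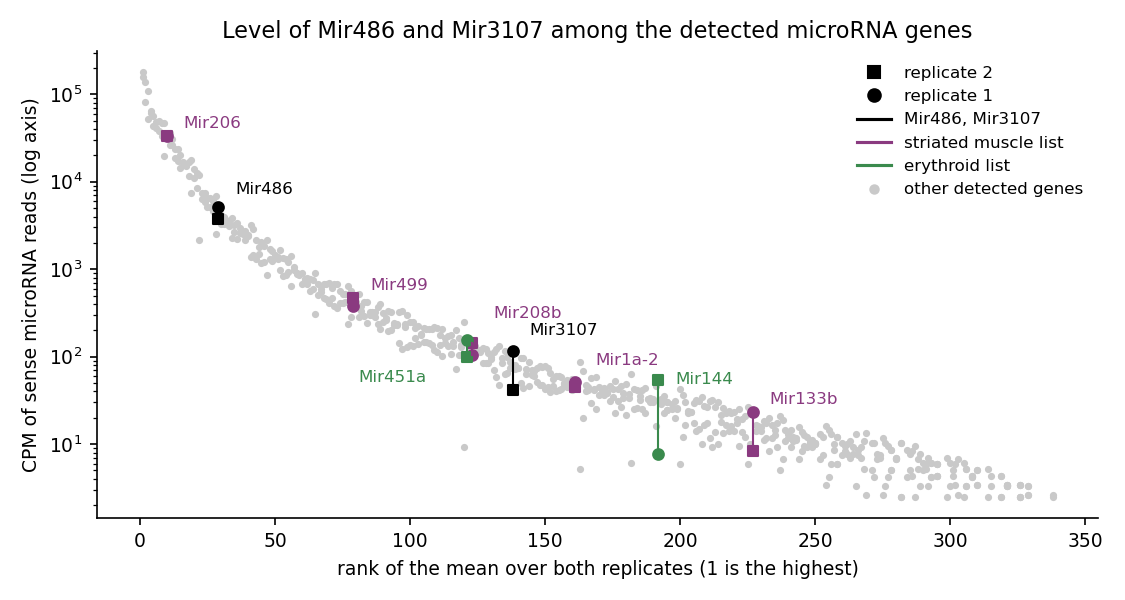
CPM (log axis) of the detected microRNA genes against the rank of their mean, with squares for replicate 2 and circles for replicate 1. Mir486 lies at rank 29, between Mir206 at rank 10 and Mir499 at rank 79, while Mir3107 lies at rank 138, below Mir451a at rank 121.

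The defining microRNA of skeletal muscle was abundant in both libraries. Mir206 stood at rank 10, with 32931 CPM in replicate 2 and 32948 CPM in replicate 1. Of the 10 striated muscle markers other than Mir486, 8 were detected, and in reads that could be placed Mir206 was the only 1 above Mir486. Mir486 had 0.113 reads per Mir206 read in replicate 2 and 0.156 in replicate 1. Mir499, made from an intron of a myosin gene and known in slow fibres, held 465 and 381 CPM, and Mir486 exceeded it 7.97-fold in replicate 2 and 13.5-fold in replicate 1. Mir208b, of the slow myosin gene, held 142 and 104 CPM, and Mir208a, of the cardiac myosin gene, had 22 and 13 reads. The Mir1 and Mir133 loci, known for high levels in muscle, had low counts here. Mir133b had 10 reads in replicate 2 and 27 in replicate 1, Mir133a-1 had 6 and 24 and Mir133a-2 had 0 and 5. Mir1a-2 had 54 in replicate 2 and 60 in replicate 1, Mir1a-1 had 9 and 14 and Mir1b had 1 in each. Mir1a-1 and Mir1a-2 make the same main mature strand, as do Mir133a-1 and Mir133a-2, so the counts of these 4 are uncertain. Reads of Mir486 that end within an arm of its repeat are not counted either. The order of these genes and the ratios to Mir486 are therefore those of placed reads only.

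Red cell markers were present at a low level. Mir451a, the main microRNA of red cells, had 117 reads (98.0 CPM) in replicate 2 and 180 reads (156 CPM) in replicate 1. Mir144, made from the same transcript, had 65 reads (54.5 CPM) in replicate 2 and 9 reads (7.78 CPM) in replicate 1, and Mir451b was at 0. Of the 3 erythroid markers other than the members, 2 were detected, with a summed level of 153 CPM in replicate 2 and 163 CPM in replicate 1. In placed reads, Mir486 exceeded Mir451a 37.8-fold in replicate 2 and 33.1-fold in replicate 1. Mir486 and Mir451a were both lower in replicate 2, and Mir144 was higher. What part of the Mir486 reads came from blood in the tissue was not tested, and in bulk tissue fewer cells of a type and less RNA per cell cannot be told apart. The mature strands of the muscle and red cell markers set beside Mir486 are given here from RefSeq, with the seed in capitals.
miR-206-3p (Mir206): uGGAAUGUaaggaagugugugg
miR-499-5p (Mir499): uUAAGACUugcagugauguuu
miR-208b-3p (Mir208b): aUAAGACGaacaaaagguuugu
miR-451a (Mir451a): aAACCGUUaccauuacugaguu
miR-144-3p (Mir144): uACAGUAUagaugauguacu

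Other cell types of the tissue were also represented, by Mir126a of endothelium at 137673 and 80768 CPM in replicates 2 and 1, Mir143 of smooth muscle at 40817 and 48618 CPM, and the leukocyte list at a summed 2252 and 3182 CPM, of which 4 of 5 members were detected. Of the 2 endothelial markers 1 was detected, and of the 3 smooth muscle markers 2. Mir145a of smooth muscle was far below Mir143, at 1323 CPM in replicate 2 and 2181 CPM in replicate 1. Mir145b had 1 read and 0 reads in the same order. Most of the leukocyte sum was Mir155 (1305 and 1698 CPM) and Mir150 (833 and 1348 CPM). Mir142 held 67.9 and 60.5 CPM, Mir223 46.9 and 76.0 CPM, and Mir142b had 0 reads.

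Between the libraries, Mir486 moved little and Mir3107 more. With library sizes scaled by TMM, Mir486 was 1.12-fold lower in replicate 2 than in replicate 1 (exact conditional 95% interval 1.08 to 1.17) and Mir3107 2.26-fold lower (1.62 to 3.21). A ratio of 1 library to 1 other has no replicate check, so it describes these libraries and carries no p-value. Past 1.5-fold in either direction lay 34.0% of the 321 detected genes, and 18.1% lay past it as lower in replicate 2. Mir3107 was 1 of those lower genes and Mir486 was not. With a background of that size, a shift past 1.5-fold is common in these libraries. Still, 16 of the 321 detected genes had a lower log2 ratio than Mir3107, whose value was -1.16, against 125 below the -0.17 of Mir486.

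The difference between the partners did not rest on library scaling, since both come from 1 place in the same library. The odds of a read lying on the Mir486 strand against the Mir3107 strand were 2.01-fold higher in replicate 2 than in replicate 1 (exact conditional 95% interval 1.44 to 2.86, counting error only). That estimate rests on 49 reads of Mir3107 in replicate 2 and 133 in replicate 1.

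**Figure D5:**
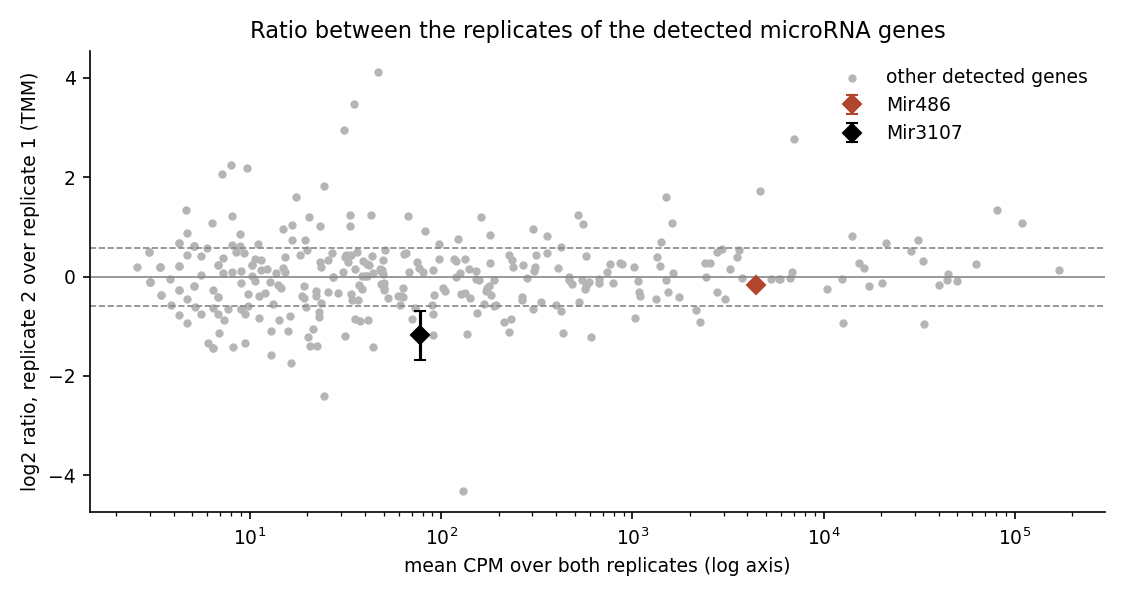
Log2 ratio of replicate 2 over replicate 1 with TMM scaling against mean CPM (log axis) for the 321 detected genes, with dashed lines at 1.5-fold. Mir486 lies inside the lines at 1.12-fold lower and Mir3107 below the lower one at 2.26-fold lower; the grey points have a pseudocount of 1 CPM, and the members have none and carry exact 95% intervals.

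Among the 56 other genes with a mean of 1000 CPM or more, those nearest to Mir486 in log2 ratio were Mirlet7b at -0.17, Mir139 at -0.19 and Mir100 at -0.13. This likeness is over 2 libraries only and is a difference of log2 ratios of at most 0.035. Mirlet7b held 33594 CPM in replicate 2 and 46887 CPM in replicate 1, Mir139 14384 and 20258 CPM, and Mir100 17241 and 23385 CPM, so each stood higher than Mir486 in both libraries.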

How the data were processed

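Small RNA was sequenced from 2 gastrocnemius libraries of 1 group. The authors deposited whole-number read counts per microRNA gene, in 3 columns without a header (both strands, the gene's strand, the opposite strand) after 4 lines of totals that name no gene. Those lines held 82.0% of all reads in replicate 2 and 81.1% in replicate 1 and were kept out of library sizes. Reads had been placed on mm10 and counted on GENCODE M21, per the labels and the descriptions deposited beside the counts. No aligner or counting tool is named in these sources. The gene's strand was taken to be the column that held nearly all reads of the genes with no overlapping partner (818282 reads in replicate 2, against 25 in the other strand column).

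From the counts, CPM were computed over the gene-strand column, with TMM sizes from edgeR 4.0.16 in R 4.3.3 over genes of 2 CPM or more in both libraries, and log2 ratios with a pseudocount of 1 CPM. DESeq2 1.42.0 size factors, total counts, other filters and columns, and leaving out a replicate were alternatives. Hairpin windows and inverted runs were searched as exact strings, on both strands, in the GENCODE M21 microRNA transcripts, since no genome sequence was used here. Shares have exact Clopper-Pearson 95% intervals from scipy 1.17.1 in Python 3.11.15, and counts of 0 allow 3 counts. The fold calls and the search for inverted runs were tested on simulated data. The simulated counts held counting error and no other variation between libraries. They therefore do not show how often a fold call arises between real libraries. The members, lists and comparisons were chosen with earlier results of these data known.

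The genes named were the members, microRNA genes within Ank1, the 2 detected genes directly above and below each member, the striated muscle and erythroid lists, opposite-strand pairs with 10 or more reads on each strand, and the 3 genes of 1000 CPM or more nearest to Mir486 in log2 ratio. The other pairs, the genes with long inverted runs and the markers of other cell types were named after their values were seen.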

Additional observations from a re-analysis of the deposited data

How the results depend on the processing

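The strand column decided whether the pair was seen: with the column of both strands Mir486 and Mir3107 were each at 0 CPM. Per 1000000 of all reads, reads in no gene included, Mir486 held 821 and Mir3107 14.6. Without replicate 1 or replicate 2 the level ran from 3706 to 5152 CPM for Mir486 and from 41.1 to 115 CPM for Mir3107. The Mir3107 share of the pair ran from 1.10% to 2.18%. The opposite-strand columns hold the same counts with the genes exchanged, so their mean share, 1.64%, is the same by construction and is no separate check. The column of both strands gave no share. The ratio of replicate 2 over replicate 1 for Mir486 was 0.890 with TMM and 0.719 with total counts only, a setting that put the median log2 ratio of the detected genes at -0.30, against -0.01 with TMM, and placed 76.6% of the calls lower in replicate 2, against 53.2% with TMM. The ratio for Mir3107 was 0.357 with total counts and at most 0.455 in the other scalings and filters tried, past 1.5-fold in each. The number of genes past 1.5-fold was 109, against 304 of 2202 with no filter and 62 of 232 with a filter of 10 CPM. The share of hairpin windows at 1 place was 97.7% at 22 bases, 89.1% at 18, 93.3% at 20, and 100% at 24 and at 26. With up to 1 mismatch at 22 bases it was 90.9%. These are shares of windows, not of reads. The search in transcripts of every type, apart from Ank1 and Gm15816, was an alternative chosen after seeing the data. It gave the same 97.7% at 22 bases. At 18 bases it gave 90.1% of the Mir486 windows at 1 place, against 91.0% among the microRNA genes. The cause of these shifts was not tested beyond what each setting changes by construction. No paired analysis was possible because the series has 1 group. The depth behind Mir3107 was 49 reads in replicate 2 and 133 in replicate 1.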

Other observations

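Among the 16 opposite-strand pairs with reads but fewer than 100 in at least 1 library, 14 had none on the minor strand. Mir1b, opposite Mir1a-2, had 1 read in each library beside 54 reads of Mir1a-2 in replicate 2 and 60 in replicate 1, a share of 1.82% and 1.64%, and Mir3073b had 1 read in replicate 2 with none on the facing strand. In 26 of the 28 pairs with any read the opposite-strand column of each gene equalled its partner's own count in both libraries, as for Mir486 and Mir3107.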
